A study of Homo sapiens with 4 samples.

Results

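The genes described here are 41 members of the cell death machinery, comprising caspases, death receptors and their adaptors, necroptosis genes and gasdermins, the BCL2 family, and the apoptosome with the inhibitor of apoptosis (IAP) proteins. They were chosen by gene symbol, with no measured value in the rule, from 37515 Ensembl genes, and all 41 had a row among the counts. Earlier results of these data were known when they were chosen, so shares of calls among them are a description. The measurements are RNA-seq read counts from 4 libraries of wild-type Caco-2 cells, a human colorectal carcinoma line that forms an enterocyte-like layer in culture. The cells were grown in transwells for 15 days before IFNγ was added to the basal compartment. In 2 libraries the cells were unstimulated (time 0), and in 2 libraries they had received 60 ng/ml IFNγ for 3 h. There is no unstimulated culture at 3 h, so IFNγ and the 3 h that passed cannot be told apart. The labels do not say whether the 2 libraries of a group came from separate cultures, so the p-values measure only the spread between these libraries.

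Caspases are proteases that lie inactive in the cell until they are cleaved or brought together. In the extrinsic pathway a ligand such as TRAIL, FAS ligand or TNF binds its receptor, adaptors recruit CASP8 or CASP10, and these activate the executioner caspases. In the intrinsic pathway BH3-only proteins relieve the block that anti-apoptotic BCL2 proteins place on BAX and BAK1, cytochrome c leaves the mitochondria, and APAF1 assembles with CASP9 into the apoptosome. Gasdermins and MLKL instead open the plasma membrane in pyroptosis and necroptosis. IFNγ is known to prime epithelial cells for several of these routes, and loss of enterocytes is a feature of celiac disease, which the study addresses.

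Library totals ran from 7171455 to 10365346 counts, so that 1 CPM, the library-scaled count, stood for 7.17 to 10.4 counts. Of the 12 intestinal epithelial or Caco-2 markers, 11 were above 1 CPM in every library, the exception being CDX1. The summed level of 6 leukocyte markers lay between 7.98 and 13.5 CPM, and PTPRC had at most 2 counts. Of 6 fibroblast and endothelial markers 5 had a row (PECAM1 did not), and their sum lay between 94.8 and 186 CPM, nearly all of it from COL1A1. As a check of the labels, 10 of 10 IFNγ-induced genes had a positive log2 fold change and 8 were called higher. Differential expression was tested over all 14820 genes with enough counts, by edgeR's quasi-likelihood test. Calls required an absolute log2 fold change above 1 and, after Benjamini-Hochberg adjustment, p under 0.05. Across these genes GC-rich transcripts had the more positive log2 fold changes (Spearman rho = 0.43 over 14518 genes, a description across genes that share the same libraries). Values are therefore also given with the trend of GC content and length removed from each library. With that removal 54.3% of all calls were higher, against 39.6% without it.

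Of the 41 genes, 37 had enough counts to be tested, and FAS, RIPK3, HRK and PMAIP1 did not. Called higher after IFNγ were 5 of the 37, namely TNFRSF1A, RIPK1, BCL2L1, BAK1 and MCL1. The share called higher among all tested genes was 2.88%. Called lower were 2 of the 37, APAF1 and BCL2L11, and the share called lower among all tested genes was 4.40%. Without a fold change threshold CASP9 and CASP10 were added to the higher genes, 7 in all, against 9.02% of all tested genes. BCL2L2 and BIRC2 were likewise added to the lower genes, 4 in all, against 11.0% of all tested genes. The other 26 tested members did not pass the adjusted p-value. The median log2 fold change of the 37 was 0.11, with 23 positive and 14 negative, and the median of all tested genes was -0.01. In 17 of the 37 both IFNγ libraries lay above both unstimulated ones, where 31.6% of all tested genes did so. In 7 of the 37 they lay below, where 30.8% of all tested genes did so. A lower level in bulk RNA may stand for fewer cells with the transcript or for less of it per cell, and these cannot be told apart.

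**Figure D1:**
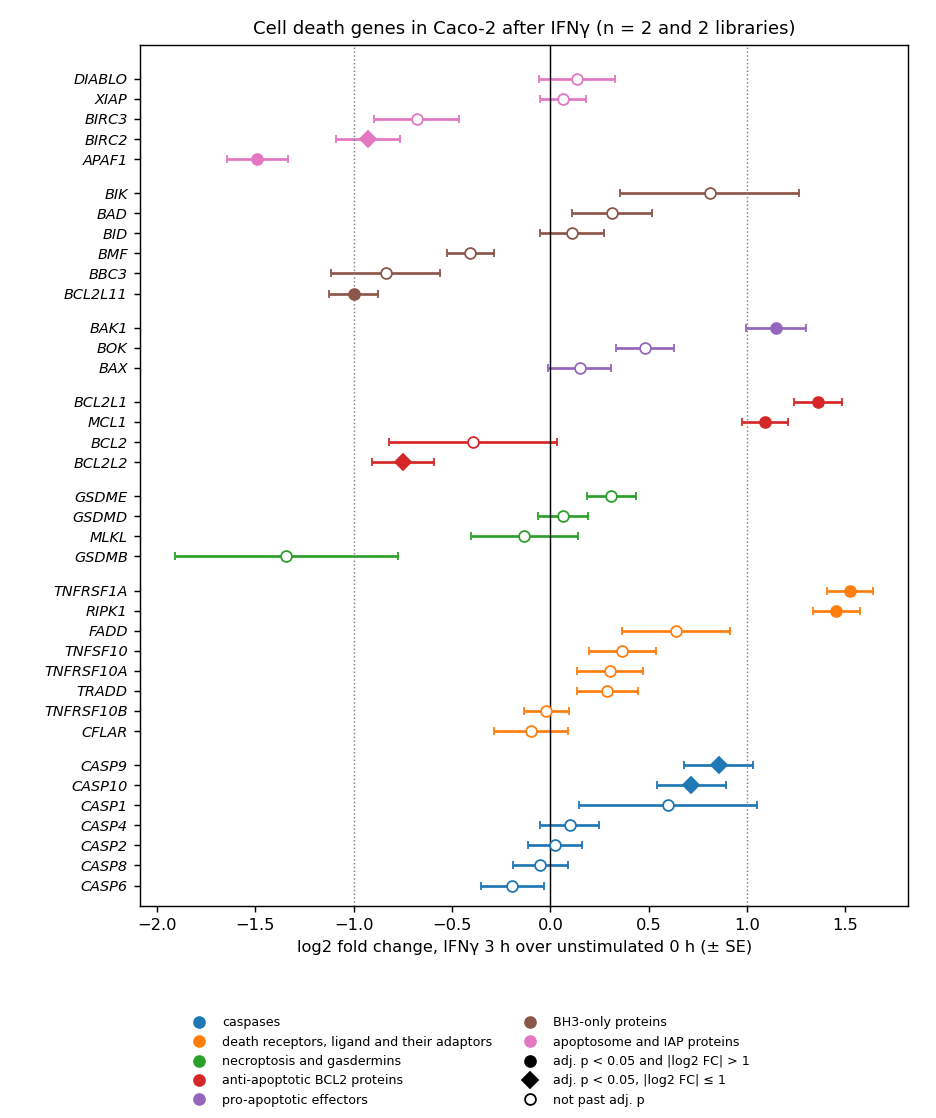
The log2 fold change of each of the 37 tested cell death genes (x axis, IFNγ at 3 h over unstimulated, bars are the standard error, 2 libraries in each group), arranged by role. Filled circles mark the 5 genes called higher and the 2 called lower, diamonds the 4 that passed the adjusted p-value at a log2 fold change under 1, and dotted lines the fold change threshold of 1.

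Among the death receptors, the ligand TRAIL and their adaptors, TNFRSF1A and RIPK1 rose and the other 6 tested genes did not pass the test. TNFRSF1A (ENSG00000067182, chromosome 12 of GRCh37, 6437923 to 6451280) encodes TNFR1, the main receptor for TNF on epithelial cells. It had 87.2 and 96.1 CPM in the unstimulated libraries and 255 and 272 CPM after IFNγ. The groups did not overlap, and both IFNγ libraries were more than 2-fold above both others. The log2 fold change was 1.52 ± 0.117 (SE is the standard error, edgeR adjusted p = 0.000687), and 1.30 with the GC and length trend removed. RIPK1 (ENSG00000137275, chromosome 6, 3064058 to 3115421) encodes the kinase that binds the death domain of TNFR1 and directs it towards NFκB, apoptosis or necroptosis. It had 38.2 and 37.3 CPM unstimulated and 100.5 and 106 CPM after IFNγ. Again the groups stood well apart, with a log2 fold change of 1.45 ± 0.121 (SE, edgeR adjusted p = 0.000953) and 1.54 with the trend removed. Receptor and kinase thus changed by similar amounts, 2.88-fold and 2.74-fold.

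TNFSF10, which encodes the death ligand TRAIL, had 72.9 and 69.4 CPM unstimulated and 106 and 76.7 CPM after IFNγ. Both IFNγ libraries were the higher, replicate 2 only slightly, and the log2 fold change of 0.37 did not pass the test (edgeR adjusted p = 0.168, 95% interval -0.03 to 0.76). Its receptors TNFRSF10A (DR4) and TNFRSF10B (DR5) had log2 fold changes of 0.30 and -0.02. The interval for TNFRSF10B ran from -0.29 to 0.25. Of the adaptors, FADD, which links death receptors to CASP8, had a log2 fold change of 0.64 (interval -0.00 to 1.28), and TRADD, which binds TNFR1, had 0.29. CFLAR, the catalytically inactive relative of CASP8 that blocks it as FLIP, had -0.10, and 0.28 with the GC and length trend removed. Its unstimulated libraries differed, with 124 and 89.8 CPM. FAS, the receptor for FAS ligand, was almost undetected, with 1 and 0 counts unstimulated and 3 and 1 after IFNγ, so a change was not detectable at this depth.

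Per kilobase of annotated exon, TNFRSF10B was the highest of these 9 genes in unstimulated cells, with a mean of 35.6 RPKM, and held 35.1% of their summed RPKM. TNFRSF1A followed at 21.8 RPKM and TNFSF10 at 20.7 RPKM. After IFNγ TNFRSF1A was the highest at 62.7 RPKM, with 39.9% of the sum, while TNFRSF10B stayed at 35.1 RPKM.

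Promoter sequence from RefSeq was at hand for 30 of the 41 genes, in 54 windows of 250 bases before to 50 bases after an annotated start (GRCh38.p14). Each window was searched on both strands for GAAA, any 2 bases and GAAA, the letters of an interferon-stimulated response element (ISRE), and for TTCNNNGAA, the letters of a gamma-activated site. The ISRE letters were in 5 of the 54 windows (9.26%) and in 3.57% of all 35116 RefSeq windows. The windows belonged to RIPK1, TNFSF10, CASP8 and BBC3, and those of one gene overlap. TTCNNNGAA was in 1 window, of CASP8 (1.85%), and in 7.66% of all windows. The windows of TNFRSF1A, BAK1 and BCL2L1, which rose, held neither set of letters, and MCL1 had no window. Another RIPK1 window (bases before the start chr6:3063717-3063966) held neither. The 250 bases before an annotated start are shown for RIPK1, a gene that rose, and for TNFSF10, a gene that did not pass the test. Both stretches hold the ISRE letters as their reverse complement. Capitals mark the match, which begins 67 bases before the start in RIPK1 (chr6:3068128-3068377, plus strand) and 187 bases before it in TNFSF10 (chr3:172523431-172523680, minus strand).
RIPK1: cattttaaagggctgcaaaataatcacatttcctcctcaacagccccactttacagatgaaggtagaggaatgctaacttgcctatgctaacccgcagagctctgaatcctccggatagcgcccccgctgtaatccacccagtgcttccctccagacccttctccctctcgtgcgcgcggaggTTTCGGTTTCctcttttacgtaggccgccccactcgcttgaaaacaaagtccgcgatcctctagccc
TNFSF10: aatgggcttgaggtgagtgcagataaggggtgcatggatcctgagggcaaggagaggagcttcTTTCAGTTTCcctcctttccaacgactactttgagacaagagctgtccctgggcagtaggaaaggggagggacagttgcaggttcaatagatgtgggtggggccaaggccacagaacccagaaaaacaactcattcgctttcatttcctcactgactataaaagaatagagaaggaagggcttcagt

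None of the 7 caspases was called, and CASP9 and CASP10 were higher under the fold change threshold. CASP9, the initiator caspase of the apoptosome, had 9.64 and 9.81 CPM unstimulated and 18.4 and 16.8 CPM after IFNγ. Its groups were far apart for a gene of this level, with a log2 fold change of 0.86 ± 0.175 (SE, edgeR adjusted p = 0.0151). Without unstimulated replicate 1 the adjusted p-value was 0.0624, with a log2 fold change of 0.84. CASP10, a death receptor initiator caspase, had 16.7 and 13.7 CPM unstimulated and 26.8 and 23.2 CPM after IFNγ. The groups did not overlap, and the log2 fold change was 0.72 ± 0.176 (SE, edgeR adjusted p = 0.0291). The adjusted p-value of CASP10 was 0.0532 from DESeq2, 0.0860 in edgeR without unstimulated replicate 2 and 0.0942 without IFNγ replicate 1.

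CASP8, the initiator that lies beside CASP10 and CFLAR on chromosome 2, had 50.2 and 59.1 CPM unstimulated and 55.2 and 49.9 CPM after IFNγ. The groups overlapped, and the log2 fold change of -0.05 had an interval of -0.38 to 0.28. CASP6, an executioner caspase and the highest of the 7 per kilobase (20.2 RPKM unstimulated), had a log2 fold change of -0.19, and CASP2 had 0.02. Of the inflammatory caspases, CASP4, the sensor of cytosolic lipopolysaccharide, had 0.10 (interval -0.26 to 0.45). With the GC and length trend removed CASP4 had 0.49 (edgeR adjusted p = 0.0485). CASP1, which processes IL-1β and IL-18, was barely present. It had 11 and 7 counts unstimulated and 19 and 9 after IFNγ, a log2 fold change of 0.60 whose interval ran from -0.46 to 1.66. The median of the 7 caspases was 0.10, and 0.49 with the trend removed, and the GC content of their transcripts had a median of 42.8% against 47.9% for all tested genes.

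No gene of the necroptosis and gasdermin group passed the adjusted p-value in DESeq2 or in the main edgeR fit. That fit used all 4 libraries, the default low-count filter and no replicate block. GSDMB and GSDME, 2 of the 4 tested, had an unadjusted p under 0.05 in edgeR. Among all tested genes 9.02% were higher and 11.0% lower even at the adjusted p-value. The share under the unadjusted one was not tallied, so the count has no comparison. GSDMB, a gasdermin that granzyme A can cleave, had 37.8 and 10.5 CPM unstimulated and 12.8 and 6.14 CPM after IFNγ. Unstimulated replicate 1 stood alone, the groups overlapped, and the log2 fold change of -1.34 ± 0.565 (SE) did not pass in edgeR (adjusted p = 0.137). Without unstimulated replicate 1 the log2 fold change was -0.12 (adjusted p = 0.890), and without unstimulated replicate 2 it was -1.95 (adjusted p = 0.000498), both from edgeR. Without IFNγ replicate 1 it was -2.02 (adjusted p = 0.0374) and without IFNγ replicate 2 it was -0.97, so that both its size and its call depended on single libraries. GSDMD, the gasdermin cleaved by inflammatory caspases, was the highest of the group at 10.9 RPKM unstimulated and 11.4 RPKM after IFNγ. Its log2 fold change was 0.06, with an interval of -0.23 to 0.36. GSDME, which executioner caspases can cleave, had 45.7 and 48.3 CPM unstimulated and 56.5 and 60.0 CPM after IFNγ. Its groups did not overlap, and the log2 fold change of 0.31 did not pass in edgeR (adjusted p = 0.123).

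MLKL, the pore-forming protein of necroptosis, had 11.1 and 8.69 CPM unstimulated and 11.0 and 6.96 CPM after IFNγ, a log2 fold change of -0.13. RIPK3, the kinase that activates MLKL, had 1 and 2 counts unstimulated and 0 in both IFNγ libraries, so a change was not detectable at this depth. RIPK1 thus rose in cells in which its necroptosis partner RIPK3 was near 0 counts.

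The anti-apoptotic BCL2 genes moved in both directions. BCL2L1 (ENSG00000171552, chromosome 20 of GRCh37, 30252255 to 30311792), which encodes BCL-XL, was the highest of the 41 genes per kilobase in both groups. It had 278 and 292 CPM unstimulated and 672 and 793 CPM after IFNγ. The lowest IFNγ library was more than 2-fold above the highest unstimulated one, and the log2 fold change was 1.36 ± 0.123 (SE, edgeR adjusted p = 0.00125), or 1.10 with the trend removed. MCL1 (ENSG00000143384, chromosome 1, 150533371 to 150552214), a short-lived anti-apoptotic protein, had 153 and 175 CPM unstimulated and 343 and 355 CPM after IFNγ. The log2 fold change was 1.09 ± 0.118 (SE, edgeR adjusted p = 0.00198), and 0.99 without unstimulated replicate 1, just under the threshold. BCL2L2, which encodes BCL-W and overlaps PPP1R3E on the opposite strand, fell. It had 38.6 and 33.1 CPM unstimulated and 22.6 and 20.1 CPM after IFNγ, with no overlap and a log2 fold change of -0.75 ± 0.157 (SE, edgeR adjusted p = 0.0164). Without unstimulated replicate 1 the adjusted p-value of BCL2L2 was 0.0889. BCL2 itself was low, with 25 and 26 counts unstimulated and 17 and 22 after IFNγ, and its log2 fold change of -0.39 had an interval of -1.40 to 0.61. BCL2L1 held 66.7% of the summed RPKM of the 4 genes unstimulated and 74.1% after IFNγ. Counts per gene do not separate the long anti-apoptotic transcripts of BCL2L1 and MCL1 from their short pro-apoptotic splice forms.

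**Figure D2:**
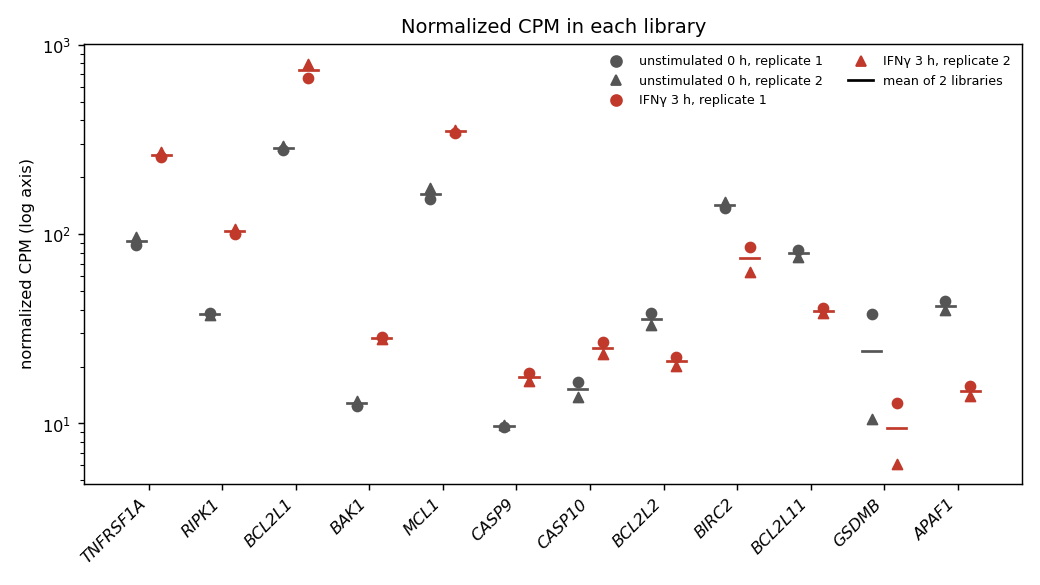
Normalized CPM (y axis, log scale) in each library for the 11 cell death genes that passed the adjusted p-value and for GSDMB, ordered by fold change; circles are replicate 1, triangles replicate 2, grey unstimulated, red IFNγ at 3 h, and bars the mean of 2 libraries. The 2 groups are apart for every gene but GSDMB, whose unstimulated libraries had 37.8 and 10.5 CPM.

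Of the effectors that permeabilize the mitochondrial outer membrane, BAK1 rose and BAX and BOK did not pass the test. BAK1 (ENSG00000030110, chromosome 6 of GRCh37, 33540324 to 33548070) had 12.4 and 13.2 CPM unstimulated and 28.5 and 28.0 CPM after IFNγ. The libraries of a group were nearly equal, and the log2 fold change was 1.15 ± 0.154 (SE, edgeR adjusted p = 0.00381). With the GC and length trend removed it was 0.87 (adjusted p = 0.00940), under the fold change threshold. BAX had 36.0 and 35.7 CPM unstimulated and 34.9 and 44.9 CPM after IFNγ. Its groups overlapped, and the log2 fold change of 0.15 had an interval of -0.23 to 0.53. BOK, a relative of both, had 18.6 and 19.2 CPM unstimulated and 26.1 and 26.7 CPM after IFNγ, a log2 fold change of 0.48 (edgeR adjusted p = 0.0576) that was 0.18 with the trend removed. In RPKM, BAX was the highest effector in both groups, at 13.9 and 15.4, and BAK1 went from 5.77 to 12.8.

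Of the 8 BH3-only genes 6 were tested, among which BCL2L11 fell and the other 5 did not pass the test. BCL2L11 (ENSG00000153094, chromosome 2 of GRCh37, 111876955 to 111926021) encodes BIM, which binds all anti-apoptotic BCL2 proteins. It had 82.1 and 76.1 CPM unstimulated and 40.7 and 38.3 CPM after IFNγ. The groups were far apart and the level was 0.50 times the unstimulated one, a log2 fold change of -1.001 ± 0.125 (SE, edgeR adjusted p = 0.00328) that lay at the fold change threshold. With the trend removed it was -0.98 (adjusted p = 0.00299), without unstimulated replicate 1 it was -0.95 and without IFNγ replicate 2 it was -0.98, all under the threshold. BMF, the highest BH3-only gene at 16.4 RPKM unstimulated, had 93.9 and 85.3 CPM unstimulated and 66.2 and 69.0 CPM after IFNγ. Its groups did not overlap, and the log2 fold change of -0.41 did not pass in edgeR (adjusted p = 0.0528), and it was -0.61 (adjusted p = 0.0101) with the trend removed. BBC3, which encodes the p53 target PUMA, had 5.65 and 6.16 CPM unstimulated and 3.31 and 3.27 CPM after IFNγ. Its log2 fold change was -0.84 (edgeR adjusted p = 0.0735), and -1.14 with an adjusted p-value of 0.0330 when the trend was removed, which passes both thresholds.

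BID, which caspase 8 cleaves to link the extrinsic to the intrinsic pathway, had a log2 fold change of 0.11, with an interval of -0.27 to 0.49. BAD had 0.31 and BIK, at 14 and 15 counts unstimulated and 22 and 29 after IFNγ, had 0.81 with an interval of -0.26 to 1.88. PMAIP1, which encodes NOXA, had 5 counts in each unstimulated library and 22 and 8 after IFNγ, too few to be tested with all 4 libraries, although both IFNγ libraries had the more counts. HRK had at most 1 count in any library.

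In the apoptosome and IAP group APAF1 and BIRC2 fell. APAF1 (ENSG00000120868, chromosome 12 of GRCh37, 99039068 to 99129211), the scaffold on which CASP9 is activated, had the largest called decrease of the 41 genes. It had 44.3 and 39.6 CPM unstimulated and 15.8 and 14.1 CPM after IFNγ. The highest IFNγ library had well under the level of the lowest unstimulated one, and the log2 fold change was -1.49 ± 0.154 (SE, edgeR adjusted p = 0.00172), or -1.24 with the GC and length trend removed. BIRC2, which encodes the ubiquitin ligase cIAP1 of the TNFR1 complex, had 137 and 148 CPM unstimulated and 86.0 and 63.3 CPM after IFNγ. The groups did not overlap, and the log2 fold change was -0.93 ± 0.161 (SE, edgeR adjusted p = 0.00868). It was -1.18 without IFNγ replicate 1 and -0.57 with the trend removed (adjusted p = 0.0418). Its paralog BIRC3, or cIAP2, had 10.8 and 9.53 CPM unstimulated and 6.32 and 6.41 CPM after IFNγ, a log2 fold change of -0.68 (edgeR adjusted p = 0.0658) that was -0.15 with the trend removed. The GC contents of BIRC2 and BIRC3 were 38.0% and 35.8%. In the lowest of 10 equal bins of GC content over tested genes, up to 38.3%, the median log2 fold change was -0.50.

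XIAP, the direct inhibitor of the executioner caspases, had 66.6 and 65.4 CPM unstimulated and 67.3 and 70.8 CPM after IFNγ. Its log2 fold change was 0.06 with an interval of -0.21 to 0.34, and 0.49 (edgeR adjusted p = 0.0315) with the trend removed. DIABLO, the mitochondrial antagonist of the IAP proteins known as SMAC, had 0.14. The median of this group was -0.68, and -0.15 with the trend removed, the widest difference between both values among the 7 role groups. The other medians were 0.33 for the receptors and adaptors, -0.03 for necroptosis and gasdermins, 0.35 for the anti-apoptotic BCL2 genes, 0.48 for the effectors and -0.15 for the BH3-only genes.

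**Figure D3:**
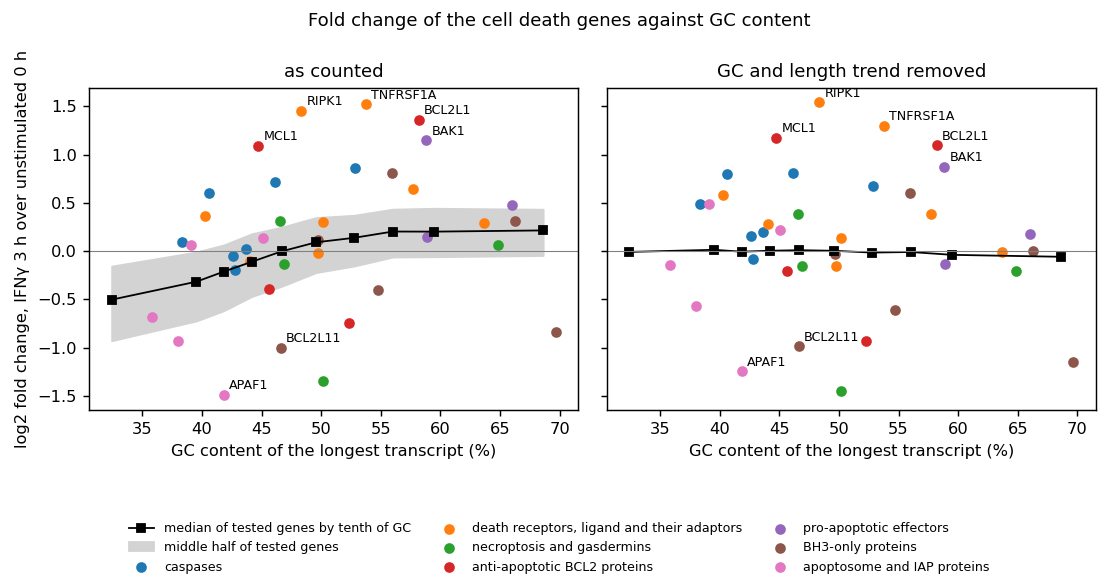
Log2 fold change of the 37 tested cell death genes (y axis, IFNγ at 3 h over unstimulated) against the GC content of the longest annotated transcript (x axis, percent), as counted on the left and with the GC and length trend removed on the right. Black squares are medians of tested genes in 10 bins of GC content. The grey band, drawn only on the left, spans the 25th to 75th percentile of these genes. On the left the squares go from -0.50 to 0.21, and on the right they stay within 0.06 of 0. The 7 named genes keep their direction in both.

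Ratios between genes of the same library do not depend on the scaling of libraries, but they still carry the GC and length trend. With that trend removed the log2 fold changes were 1.10 for BCL2L1, -0.98 for BCL2L11, 0.87 for BAK1 and -0.13 for BAX. They were 0.67 for CASP9 and -1.24 for APAF1, against 0.86 and -1.49 as counted. The pairs were chosen after the fold changes were seen and are given as a description, since 2 libraries against 2 cannot give an exact permutation p-value under 0.333. The log2 ratio of BCL2L1 to BAX (RPKM) was 2.25 and 2.33 unstimulated and 3.57 and 3.44 after IFNγ, a 2.32-fold higher ratio. The ratio of BCL2L1 to BAK1 hardly differed, at 3.57 and 3.55 unstimulated and 3.64 and 3.90 after IFNγ. That of MCL1 to BAK1 overlapped, at 2.13 and 2.24 unstimulated and 2.10 and 2.17 after IFNγ. BCL2L1, MCL1 and BAK1 thus rose by similar amounts, and BAX did not pass the test. The log2 ratio of BCL2L1 to BCL2L11 was 2.45 and 2.63 unstimulated and 4.73 and 5.05 after IFNγ. Summed over members, the anti-apoptotic genes against the 3 effectors stood at 1.90 and 1.96 unstimulated and at 2.61 and 2.65 after IFNγ. Against the BH3-only genes they stood at 1.24 and 1.32 unstimulated and at 2.68 and 2.84 after IFNγ. BCL2L1 made up most of the anti-apoptotic sum. The ratio of CASP9 to APAF1, the 2 proteins of the apoptosome, went from -1.64 and -1.46 to 0.78 and 0.81, so that APAF1 was the higher per kilobase before IFNγ and CASP9 after it. The ratio of CFLAR to CASP8 overlapped between groups, at -0.33 and -1.03 unstimulated and -0.61 and -0.82 after IFNγ.

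**Figure D4:**
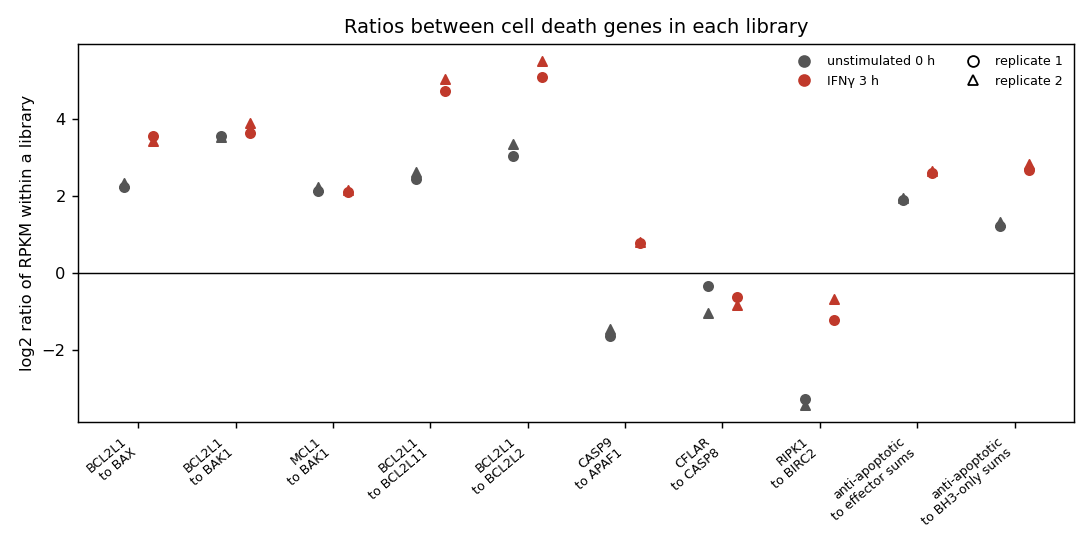
Log2 ratio of RPKM between cell death genes in each library (y axis; circles replicate 1, triangles replicate 2, grey unstimulated, red IFNγ at 3 h). The ratios of BCL2L1 to BAX and of CASP9 to APAF1 are apart between groups, and those of MCL1 to BAK1 and CFLAR to CASP8 overlap.

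Beyond the 41 genes, a list of 89 further cell death genes was read in the same fit, of which 86 had a row and 63 were tested. That list, too, was chosen with earlier results of these data known. Called higher were 4 of the 63 (6.35%, against 2.88% of all tested genes) and called lower 1 (1.59%, against 4.40%). Without a fold change threshold 12 were higher (19.05%, against 9.02%) and 5 lower (7.94%, against 11.0%). Their median log2 fold change was 0.14. TNFRSF12A, the receptor for the cytokine TWEAK, had 6.82 and 7.71 CPM unstimulated and 43.8 and 59.1 CPM after IFNγ, the largest change (log2 fold change 2.83 ± 0.206 SE, edgeR adjusted p = 0.000629). AEN, a nuclease of the p53 pathway, had a log2 fold change of 1.73. TNFRSF1B, which encodes TNFR2, had 13.3 ± 1.67 (SD, n = 2) CPM unstimulated and 38.5 ± 2.30 (SD, n = 2) CPM after IFNγ, a log2 fold change of 1.54 (edgeR adjusted p = 0.00181). TNFRSF11B, the soluble decoy receptor osteoprotegerin, had 1.03 (edgeR adjusted p = 0.00702). Both TNF receptors were thus among the genes called higher, while TNF itself had 1 count in 1 IFNγ library and 0 in the other libraries. The gene called lower was IL1B, which encodes IL-1β, with 12 and 11 counts unstimulated and 2 in each IFNγ library (log2 fold change -2.48, edgeR adjusted p = 0.0301). TRAF5, with the next lowest log2 fold change of -1.43, did not pass (edgeR adjusted p = 0.0743).

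Of 13 tested signalling genes of the TNF receptors, 3 were lower and 1 higher at an adjusted p-value under 0.05 from edgeR. These shares were 23.1% and 7.69%, against 11.0% and 9.02% of all tested genes. TNFAIP3, TAB2 and MAP3K7 were lower (-0.93, -0.73 and -0.75). RNF31, a subunit of the linear ubiquitin ligase, was higher (0.56), and all 4 were under the fold change threshold. With the trend removed MAP3K7 had -0.32 (adjusted p = 0.0962) and RNF31 had 0.35 (adjusted p = 0.123), and neither passed. These 4 names were chosen after their values were seen. Exons of RNF31 overlap PSME2 on the opposite strand, and whether reads of PSME2 were counted for RNF31 was not tested. Of the 15 tested genes of mitochondrial release and execution, 0 passed the adjusted p-value in the main edgeR fit or in DESeq2. In the main edgeR fit 3 of them had an unadjusted p under 0.05. Of the 7 tested genes of the wider BCL2 family 0 passed in either of these fits, and 1 had an unadjusted p under 0.05 in the main edgeR fit. The share of all tested genes under that unadjusted p was not tallied, so these counts have no comparison.

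The strand setting of the counting was not given in the sources used here, and 18 of the 41 genes have exons that overlap no other annotated gene. PPP1R3E, opposite BCL2L2, had 286 and 89 counts unstimulated and 144 and 64 after IFNγ, against 396 and 236 and then 232 and 147 for BCL2L2. Its log2 fold change was -0.83 (edgeR adjusted p = 0.169), close to that of BCL2L2, and reads of the 2 genes cannot be told apart where they overlap. BCL2L2 also overlaps BCL2L2-PABPN1 on its own strand, which had 1 and 3 counts unstimulated and 2 and 0 after IFNγ. It further overlaps HOMEZ on the opposite strand, which had no row. How reads in these overlaps were counted was not tested. The antisense neighbours of the genes past the fold change threshold had fewer counts where they had a row. ADAMTSL4, opposite MCL1, had 57 to 156 counts in a library, against 1250 to 3528 for MCL1. MIR4435-2HG, opposite BCL2L11, had 20 to 30 counts in a library, against 281 to 843 for BCL2L11. ANKS1B, opposite APAF1, had at most 3 counts.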

How the data were processed

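For each of the 4 libraries the authors deposited unnormalized read counts by Ensembl identifier, 1 column a library. The submitters' processing notes name HISAT 0.5.1 and HTSeq 0.6.1p1; build, annotation and strand setting for these libraries are not given in the sources used here. Symbols (96.5% of identifiers), GRCh37 coordinates, exon lengths and GC content came from GENCODE 44 lifted to GRCh37, promoters from RefSeq.

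Counts were tested in R 4.3.3 with edgeR 4.0.16 (quasi-likelihood, TMM, default low-count filter of 10 counts, no block). Each standard error was taken as the absolute log2 fold change over √F. CPM and RPKM use TMM library sizes; RPKM divides by the union of annotated exons. Precision is limited by 2 libraries a group. The GC and length trend was a loess fit (span 0.5). The main fit, the fit with a replicate block and DESeq2 were first tested on simulated data. The trend removal, the other scalings and filters, and the fits without a library were not.

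Alternatives were 3 scalings, DESeq2 1.42.0, other filters, a replicate block, trend removal and leaving out libraries. The members and lists were chosen with earlier results of these data known. Values in every library are given for members past the adjusted p-value and the largest change of each role; others were added where the text describes them. One list entry that was an alias was dropped.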

Additional observations from a re-analysis of the deposited data

How the results depend on the processing

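The 5 members called higher numbered 4 to 5 under every alternative with the fold change threshold, 4 with the GC and length trend removed (without BAK1, 0.87) and 4 without unstimulated replicate 1 (without MCL1). The members called lower numbered 2, 1 with upper quartile scaling (BCL2L11 at -0.96), 1 to 4 with a library left out (1 without unstimulated replicate 1 or IFNγ replicate 2, 4 without IFNγ replicate 1), and 4 with no fold change threshold. With the trend removed they were APAF1 and BBC3, and BCL2L11 was under the threshold. Without a filter BCL2L11 had -0.98 and GSDMB was called. Of all 14820 tested genes, 652 were called lower in the main fit, 586 with upper quartile scaling and 896 with the replicate block. With the trend removed 315 of 14518 were. Called higher were 427 in the main fit and 374 with the trend removed. In fits that leave out a library, the lone library of an arm is assumed to vary like the others. The number of all tested genes called lower also differed between these fits.

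The replicate block gave 3 members lower, GSDMB being added (-1.30, adjusted p = 0.00277 from edgeR). It gave 2 pathway genes lower, IL1B and TRAF5 (-1.45, adjusted p = 0.00831 from edgeR). No other member's call under both thresholds changed. At the adjusted p-value alone TNFSF10, GSDME, BOK, BMF, BBC3 and BIRC3 also passed with the block, at absolute log2 fold changes under 1. Of the genes of mitochondrial release and execution, BIRC6 (-0.96, edgeR adjusted p = 0.00267), VDAC1 (0.26, 0.0154) and BIRC7 (0.42, 0.0304) passed it with the block. Of the wider BCL2 family BNIP3L did (-0.35, edgeR adjusted p = 0.00610). Among all 14820 tested genes, 2596 were higher and 2892 lower at that p-value, against 1337 and 1626 in the main fit. Same-numbered libraries deviated together (r = 0.408 across 14820 genes). There are only 2 pairs and the labels name no shared culture, so whether these libraries were paired is not known.

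Pathway genes called higher numbered 3 to 5 with a library left out and 12 with no fold change threshold. Those called lower numbered 0 with DESeq2, 0 under a minimum of 10 counts per library, 2 without a filter, 5 with no fold change threshold, and 0 to 4 with a library left out. The minimum of 10 counts leaves IL1B untested, and DESeq2 gave it no adjusted p-value.

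The median of the members was 0.15 with upper quartile scaling, 0.07 with library size only, 0.15 without a filter, 0.15 with the trend removed, and 0.09 to 0.20 with a library left out. With the trend removed, role medians were 0.49 for caspases, 0.18 for effectors, -0.32 for BH3-only genes and -0.15 for the apoptosome and IAP group. Without a filter they were 0.39 for receptors and adaptors and 0.23 for BH3-only genes, as low genes enter. Library size only gave 0.29 for receptors and adaptors and 0.44 for effectors, and upper quartile scaling 0.52 for effectors. With a library left out, caspases ran from -0.09 to 0.25, receptors and adaptors from 0.32 to 0.40, necroptosis and gasdermins from -0.27 to 0.11, anti-apoptotic genes from 0.18 to 0.56, effectors from 0.44 to 0.52, BH3-only genes from -0.13 to 0.24, and the apoptosome and IAP group from -0.75 to -0.58. The signs for caspases, BH3-only genes and necroptosis and gasdermins are therefore not settled. The cause was not tested.

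Members that changed sign were not called in any fit. With the trend removed CASP8 had 0.15, TRADD -0.01, CFLAR 0.28, GSDMD -0.21, BAX -0.13 and BID -0.03. CASP2 had -0.02 with library size only and TNFRSF10B 0.02 with upper quartile scaling. With a library left out CASP2 ran from -0.07 to 0.08, CASP4 from -0.12 to 0.25, CASP8 from -0.17 to 0.08, TNFRSF10B from -0.09 to 0.07, CFLAR from -0.30 to 0.15, MLKL from -0.53 to 0.12, GSDMD from -0.01 to 0.12, BAX from -0.06 to 0.31, BID from -0.01 to 0.24 and DIABLO from -0.03 to 0.32. Of 439 member values under the alternatives, 405 kept their direction and side of the threshold. Without a filter and without IFNγ replicate 2 edgeR estimated infinite prior degrees of freedom, and p-values there should not be set beside the rest.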
